A study of Homo sapiens with 6 samples.

Results

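The genes examined here are 40 DNA repair and DNA damage checkpoint genes of the established repair pathways. They were chosen by name, with earlier results of these data known. Numeric gene identifiers were used to find them among the 23459 rows of the count table. All 40 had a row and all 40 passed the filter on low counts, which left 12010 genes in the test. They were placed in 7 groups: mismatch repair (5 genes), base excision repair (6), translesion synthesis (3), end joining (8), break sensing and checkpoint (7), homologous recombination (7) and the Fanconi anaemia pathway (4). The cells were Raji, an established line from a Burkitt's lymphoma, a tumour of germinal centre B cells. The control group carried the lentiviral non-target hairpin SHC002 (3 libraries) and the other group the hairpin OBF1sh1 against OBF1 (3 libraries). OBF1, the product of POU2AF1, is a coactivator made mainly in B cells that joins Oct factors on DNA. Both groups had been exposed to pLKO.1 lentivirus for 5 days and selected for 7 days in 3 μg/ml puromycin. A single hairpin against OBF1 was used, so an effect of the loss of OBF1 and an off-target effect of that hairpin cannot be told apart.

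Cells repair damaged bases by excision, replication errors by mismatch repair, and broken chromosomes either by joining the ends directly or by copying the sister chromatid in homologous recombination. The Fanconi anaemia proteins act on crosslinked DNA and hand the break to homologous recombination, and translesion polymerases copy across damage that has not been repaired. Germinal centre B cells use several of these routes on purpose: uracils made by the deaminase AID are processed by UNG and by mismatch repair during somatic hypermutation, and class switching joins the resulting breaks by end joining. Recombination and Fanconi genes are most active in S and G2 phase.

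Total gene counts were between 29569281 and 32612429 per library, of which the 40 members together took between 206488 and 239932. POU2AF1 was 2.12-fold lower in OBF1 shRNA libraries (514 ± 2.15 against 242 ± 1.66 CPM, SD, n = 3, with an edgeR adjusted p of 1.25e-17). CPM is a read count relative to the total of its library, after TMM scaling of the totals. POU2F1 was at 63.0 and 52.8 CPM and POU2F2 at 121 and 303 CPM. Among all tested genes 75.4% were called (edgeR adjusted p under 0.05), 37.5% higher and 37.9% lower. Of 8 listed B cell markers, all expressed, 7 were called higher and CD79B lower, with a median log2 fold change of 0.50. Their sum was 5302 CPM with the control hairpin and 11078 CPM with the OBF1 hairpin, and most of that gain was CD74 (2623 and 6674 CPM) and MS4A1 (702 and 2078 CPM). The 9 myeloid markers summed to 3.45 to 3.59 CPM in control and 3.24 to 3.61 CPM in OBF1 shRNA libraries, and the 10 T and NK cell markers to 0.19 to 0.27 and 0.88 to 1.02 CPM. Most of the rise in the T and NK sum came from NKG7, called higher (means 0.14 and 0.79 CPM, edgeR adjusted p = 1.99e-05). CD3D, CD2, CD5 and GNLY (T and NK) and S100A9 and MPO (myeloid) were at 0 counts in every library. So were GATA4, KRT18 and NEFM (293T, the cells that packaged the virus). Nothing in the labels ties the libraries of a group to separate cultures, so p-values here reflect a spread between libraries that may be only technical.

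The upstream sequences of 5 called members, picked after their values were seen, are printed here to show what their promoters hold: 4 genes that were lower in OBF1 shRNA cells (BRCA2, RAD54L, BLM and RIF1) and FANCA, the member with the largest gain. Each is the longest stretch within the 250 bases before the RefSeq gene start (GRCh38.p14) that no exon of GENCODE release 29 covers, written 5′ to 3′ on the gene's strand. Some members with larger falls than RAD54L and BLM are not printed because exons cover this window: 24 bases were free of exons for XRCC4, and 0 for MRE11, PMS1 and REV3L. Capitals mark the CCAAT box (CCAAT), the GC box (GGGCGG) and the core of the cell cycle homology region, CHR (TTTGAA), each on either strand; neighbouring GC boxes can share a base.
BRCA2 (chr13:32315345-32315473, plus strand): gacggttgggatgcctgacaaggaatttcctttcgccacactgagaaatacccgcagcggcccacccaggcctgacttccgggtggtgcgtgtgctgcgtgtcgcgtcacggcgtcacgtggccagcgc
RAD54L (chr1:46247438-46247687, plus strand): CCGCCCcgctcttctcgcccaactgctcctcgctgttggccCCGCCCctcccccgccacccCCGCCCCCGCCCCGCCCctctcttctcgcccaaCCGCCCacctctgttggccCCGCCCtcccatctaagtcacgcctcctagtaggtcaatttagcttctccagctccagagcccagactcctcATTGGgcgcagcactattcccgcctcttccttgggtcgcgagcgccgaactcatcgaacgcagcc
BLM (chr15:90717142-90717326, plus strand): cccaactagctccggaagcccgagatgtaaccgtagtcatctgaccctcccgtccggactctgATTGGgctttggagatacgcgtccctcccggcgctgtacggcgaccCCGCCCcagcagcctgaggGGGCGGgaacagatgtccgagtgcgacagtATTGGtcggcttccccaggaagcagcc
RIF1 (chr2:151409652-151409882, plus strand): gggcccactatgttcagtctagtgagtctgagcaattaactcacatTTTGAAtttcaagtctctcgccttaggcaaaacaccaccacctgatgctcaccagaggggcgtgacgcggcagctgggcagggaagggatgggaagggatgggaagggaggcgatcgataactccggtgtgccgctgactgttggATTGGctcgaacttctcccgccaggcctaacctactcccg
FANCA (chr16:89816658-89816897, minus strand): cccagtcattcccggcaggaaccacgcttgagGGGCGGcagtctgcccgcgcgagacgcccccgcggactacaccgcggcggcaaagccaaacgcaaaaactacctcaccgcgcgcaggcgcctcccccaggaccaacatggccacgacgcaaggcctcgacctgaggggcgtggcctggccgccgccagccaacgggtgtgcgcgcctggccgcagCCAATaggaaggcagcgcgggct
No match to the octamer ATGCAAAT, the site that Oct factors bind with OBF1, was found in these 5 stretches, nor in the promoters (250 bases before to 50 after the start) of the 34 members present in the promoter table. Over the 9514 tested genes with a promoter, 1.33% held the octamer. RAD54L held 7 GC boxes and 1 CCAAT box, BLM 2 of each, and FANCA 1 of each. RIF1 held 1 CCAAT box and the CHR core, while the BRCA2 stretch held none of the motifs searched. Of the 34 member promoters, 19 (55.9%) held CCAAT, against 38.4% of all tested genes, and 27 (79.4%) held GGGCGG, against 69.6%. The E2F sites TTTGGCGC or TTTCCCGC were present in MSH3, XRCC6, FANCD2 and MSH6, 11.8% of member promoters against 3.92% of all. The CHR core was present in ATM, RIF1 and XRCC1, 8.82% against 10.2%. These are matches of letters and not measured binding sites.

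Most repair genes changed by small amounts, and more of them were lower than higher. In OBF1 shRNA cells 10 members rose and 19 fell, while 11 missed the threshold (quasi-likelihood test of edgeR, with p adjusted over all tested genes and a threshold of 0.05). That is 72.5% of members called, beside 75.4% of all tested genes, so the share of repair genes called was near the background. Over all genes 37.5% were called higher and 37.9% lower. The median log2 fold change was -0.07 for the members and -0.01 for all tested genes, and the median size of change was 0.18 against 0.29. Called changes of at least 1.5-fold numbered 2 lower (XRCC4 and BRCA2) and 0 higher, where 10.4% of all tested genes were lower and 12.9% higher by that size, 23.3% in all. The 3 libraries of each group did not overlap in CPM for 32 of 40 members, beside 76.6% of all tested genes. The split moved with the scaling. Using library sizes with no scaling factor shifted the median of all genes by -0.11 and gave 8 members higher and 25 lower. An offset for transcript GC content, which was added once the data had been seen, gave 15 higher and 16 lower.

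**Figure D1:**
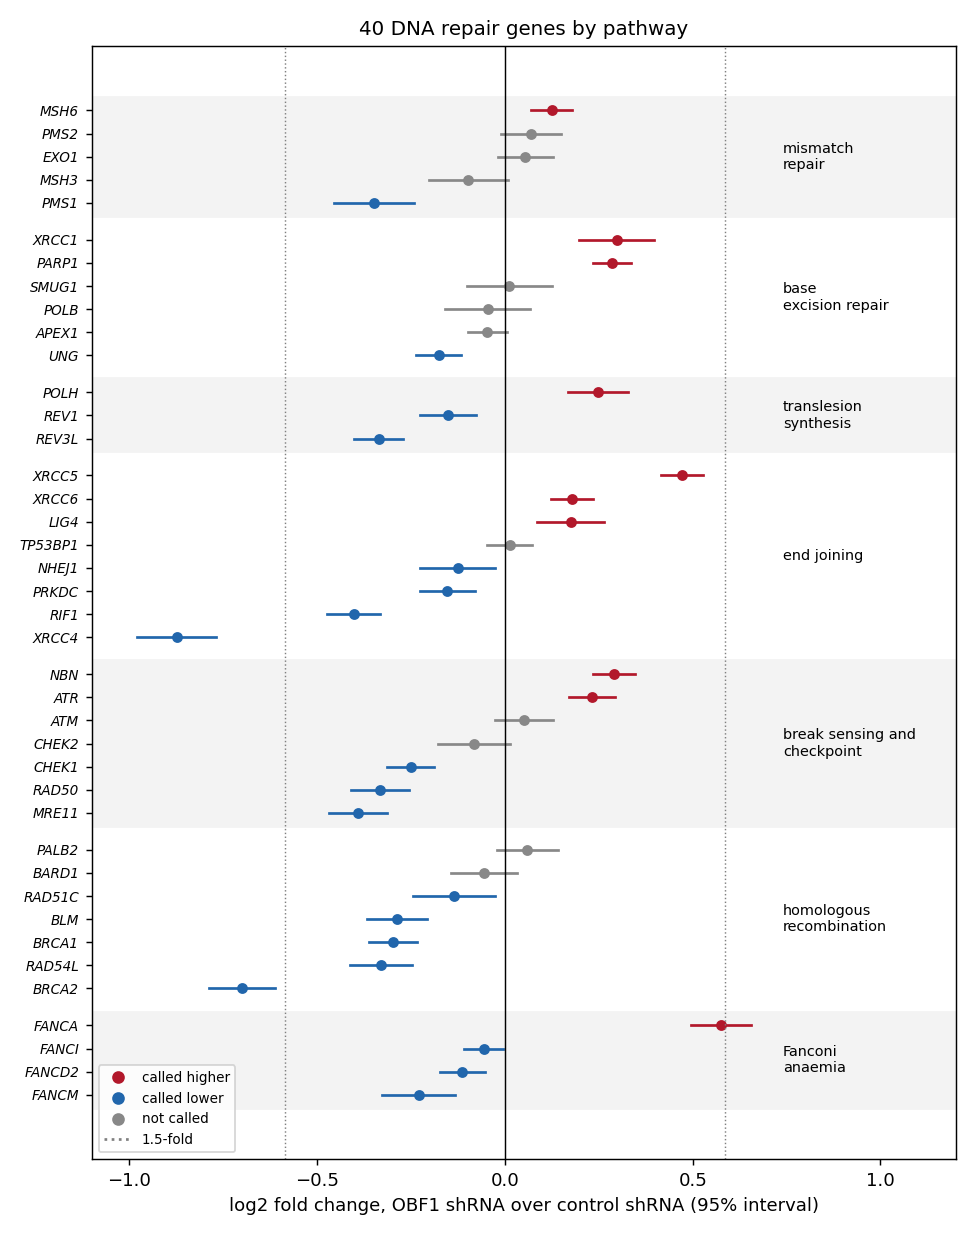
Log2 fold change of the 40 repair genes (OBF1 shRNA over control shRNA, edgeR, 3 libraries per group) on the x axis, ordered within each pathway group on the y axis; points are estimates, lines 95% intervals, and dotted lines mark a 1.5-fold change. XRCC4 (-0.87) and BRCA2 (-0.70) lie beyond the lower dotted line, and FANCA (0.58) lies just inside the upper one.

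Homologous recombination had the lowest median log2 fold change, -0.29, with 5 members lower, 0 higher and 2 not called (edgeR; 0 were also higher at an unadjusted p under 0.05 and with DESeq2 or limma-voom, and 2 with the GC offset). Translesion synthesis had a median of -0.15 (1 higher, 2 lower), the Fanconi group -0.08 (1 higher, 3 lower), break sensing and checkpoint -0.08 (2 higher, 3 lower, 2 not called) and end joining -0.06 (3 higher, 4 lower, 1 not called). Base excision repair had a median of -0.02 (2 higher, 1 lower, 3 not called) and mismatch repair of 0.05 (1 higher, 1 lower, 3 not called). Library sizes alone moved the medians to -0.40 for recombination, -0.26 for translesion synthesis, -0.19 for the Fanconi group and for break sensing, -0.17 for end joining, -0.13 for base excision and -0.05 for mismatch repair, which then had 0 higher and 2 lower. With the GC offset the medians were -0.18 for recombination, -0.11 for translesion synthesis and -0.04 for the Fanconi group. The order did not carry over to other genes of these pathways, where the median was -0.06 for 21 recombination genes and -0.28 for 7 translesion genes. These are descriptions of short lists, and the differences between pathways were not tested.

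Of the mismatch repair genes, PMS1, a MutL subunit gene, fell and MSH6 rose, and the other 3 were not called. PMS1 was at 40.4, 36.8 and 41.3 CPM in the control libraries and 31.6, 31.9 and 29.6 CPM in the OBF1 shRNA libraries. The groups did not overlap, and PMS1 fell 1.27-fold (log2 fold change -0.35, SE 0.05, edgeR adjusted p = 5.69e-06). MSH6, whose protein recognises single mismatches as part of the MutS alpha dimer, was at 350.2, 355 and 350.0 CPM with the control hairpin and 372, 394 and 385 CPM with the OBF1 hairpin. All OBF1 shRNA libraries were above all controls, a 1.09-fold rise (edgeR adjusted p = 0.000313) that was lost with library sizes alone (log2 fold change 0.02, adjusted p = 0.588). MSH3, which recognises larger loops, held 43.6, 45.0 and 49.0 CPM with the control hairpin and 40.3, 45.3 and 43.0 CPM with the OBF1 hairpin. The groups overlapped and MSH3 was not called (log2 fold change -0.10, 95% interval -0.20 to 0.01, edgeR adjusted p = 0.0891). It was called lower with upper-quartile factors (adjusted p = 0.0455), with library sizes alone (0.00130), and without control shRNA replicate 1 (0.0437) or OBF1 shRNA replicate 2 (0.0331), and its sign turned with the GC offset (0.03). PMS2, the nicking subunit of MutL alpha, held 66.5, 69.5 and 66.4 CPM with the control hairpin and 67.5, 72.5 and 72.5 CPM with the OBF1 hairpin, and was not called (log2 fold change 0.07, 95% interval -0.01 to 0.15). PMS2 has near-identical pseudogenes, so its counts are uncertain. EXO1, the exonuclease that removes the mismatched strand, was not called either, at 78.1 and 81.1 CPM (95% interval of the log2 fold change -0.02 to 0.13); PMS2 and EXO1 were called higher with the GC offset, and PMS2 also in edgeR with control shRNA replicate 2 left out (adjusted p = 0.0356) or OBF1 shRNA replicate 1 left out (0.0244).

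In base excision repair the nick sensor and the scaffold rose and the uracil glycosylase fell. PARP1, the poly(ADP-ribose) polymerase that detects nicks, was at 822, 860.0 and 843 CPM with the control hairpin and 1019, 1026 and 1031 CPM with the OBF1 hairpin. The groups did not overlap, and PARP1 rose 1.22-fold (log2 fold change 0.28, SE 0.02, edgeR adjusted p = 5.68e-09). XRCC1, the scaffold that gathers the nick-sealing enzymes, was at 29.5, 28.0 and 27.9 CPM with the control hairpin and 35.5, 33.2 and 36.2 CPM with the OBF1 hairpin. It rose 1.23-fold without overlap (edgeR adjusted p = 1.87e-05). UNG, which removes uracil from DNA, including the uracils that AID makes, was at 132, 136 and 133 CPM with the control hairpin and 117, 119 and 118 CPM with the OBF1 hairpin. UNG fell 1.13-fold (log2 fold change -0.18, SE 0.03, edgeR adjusted p = 1.97e-05). SMUG1, the other uracil glycosylase of the list, held 21.9 ± 0.978 and 22.0 ± 0.718 CPM (SD, n = 3), and its log2 fold change of 0.01 had a 95% interval of -0.10 to 0.12. The abasic site endonuclease gene APEX1 was at 508, 531 and 522 CPM with the control hairpin and 498, 506 and 506 CPM with the OBF1 hairpin. Those groups did not overlap, but APEX1 was not called (log2 fold change -0.05, edgeR adjusted p = 0.0954). APEX1 was called lower with upper-quartile factors (adjusted p = 0.0160), with library sizes alone (6.66e-06) and without control shRNA replicate 1 (0.0453). POLB, the gap-filling polymerase, was at 18.3 and 17.7 CPM and was not called (95% interval of the log2 fold change -0.16 to 0.07), except as lower with library sizes alone (edgeR adjusted p = 0.0147).

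All 3 translesion genes were called, beside 75.4% of all tested genes. REV3L, the catalytic subunit of polymerase zeta, was at 223, 210.4 and 223 CPM with the control hairpin and 171, 179 and 169.5 CPM with the OBF1 hairpin. It fell 1.26-fold (log2 fold change -0.34, SE 0.03, edgeR adjusted p = 1.41e-08). REV1, the scaffold polymerase that recruits it, was at 71.1, 69.1 and 68.6 CPM with the control hairpin and 62.4, 64.1 and 61.5 CPM with the OBF1 hairpin, and fell 1.11-fold (edgeR adjusted p = 0.000782). POLH, polymerase eta, which makes the A/T mutations of somatic hypermutation, went the other way. It was at 45.3, 43.5 and 44.7 CPM with the control hairpin and 52.7, 52.7 and 53.1 CPM with the OBF1 hairpin, a 1.19-fold rise without overlap (edgeR adjusted p = 9.58e-06). The gene span of POLH overlaps that of GTPBP2, which also rose, from 41.9 to 57.1 CPM (log2 fold change 0.45, edgeR adjusted p = 5.03e-08), and its part in the POLH value was not tested.

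End joining held the widest spread of any group, from XRCC4 at the bottom to the Ku gene XRCC5 near the top. XRCC4, the filament protein that stabilises DNA ligase IV, was at 28.97, 28.5 and 28.5 CPM with the control hairpin and 15.9, 15.3 and 15.8 CPM with the OBF1 hairpin. The groups lay far apart, and XRCC4 fell 1.83-fold (log2 fold change -0.87, SE 0.05, edgeR adjusted p = 2.07e-11); 5.51% of all tested genes had a log2 fold change as low or lower. LIG4, the ligase itself, was at 34.7 ± 0.896 CPM with the control and 39.2 ± 0.905 CPM with the OBF1 hairpin (SD, n = 3). LIG4 rose 1.13-fold (edgeR adjusted p = 0.00108), a call lost with library sizes alone (adjusted p = 0.171). The Ku heterodimer binds broken ends first. XRCC5, encoding Ku80, was at 516, 535 and 541 CPM with the control hairpin and 716, 744 and 746 CPM with the OBF1 hairpin, a 1.39-fold rise (log2 fold change 0.47, SE 0.03, edgeR adjusted p = 1.38e-11). XRCC6, encoding Ku70, was at 613, 654 and 640.4 CPM with the control hairpin and 706, 724 and 728 CPM with the OBF1 hairpin, a 1.13-fold rise (edgeR adjusted p = 8.97e-06). PRKDC, the kinase that Ku recruits, had the highest unscaled count of all members and fell 1.11-fold, from 1281 ± 45.4 to 1152 ± 66.6 CPM (n = 3, SD, with an edgeR adjusted p of 0.000725).

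RIF1 and TP53BP1 encode partners that protect broken ends from resection and so favour end joining. RIF1 was at 136, 127 and 132 CPM with the control hairpin and 98.9, 103 and 96.5 CPM with the OBF1 hairpin. It fell 1.32-fold without overlap (log2 fold change -0.40, SE 0.03, edgeR adjusted p = 4.76e-09). TP53BP1 held 135 ± 2.53 and 136 ± 2.47 CPM (SD, n = 3), with a log2 fold change of 0.01 and a 95% interval of -0.05 to 0.07; with library sizes alone it was called lower (edgeR adjusted p = 0.00646). NHEJ1, the XRCC4-like factor XLF, was at 29.2 and 26.7 CPM and called lower (edgeR adjusted p = 0.0230). DESeq2 did not call it (adjusted p = 0.0828), nor did edgeR without control shRNA replicate 1 (0.0654), control shRNA replicate 2 (0.0559) or OBF1 shRNA replicate 1 (0.114).

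**Figure D2:**
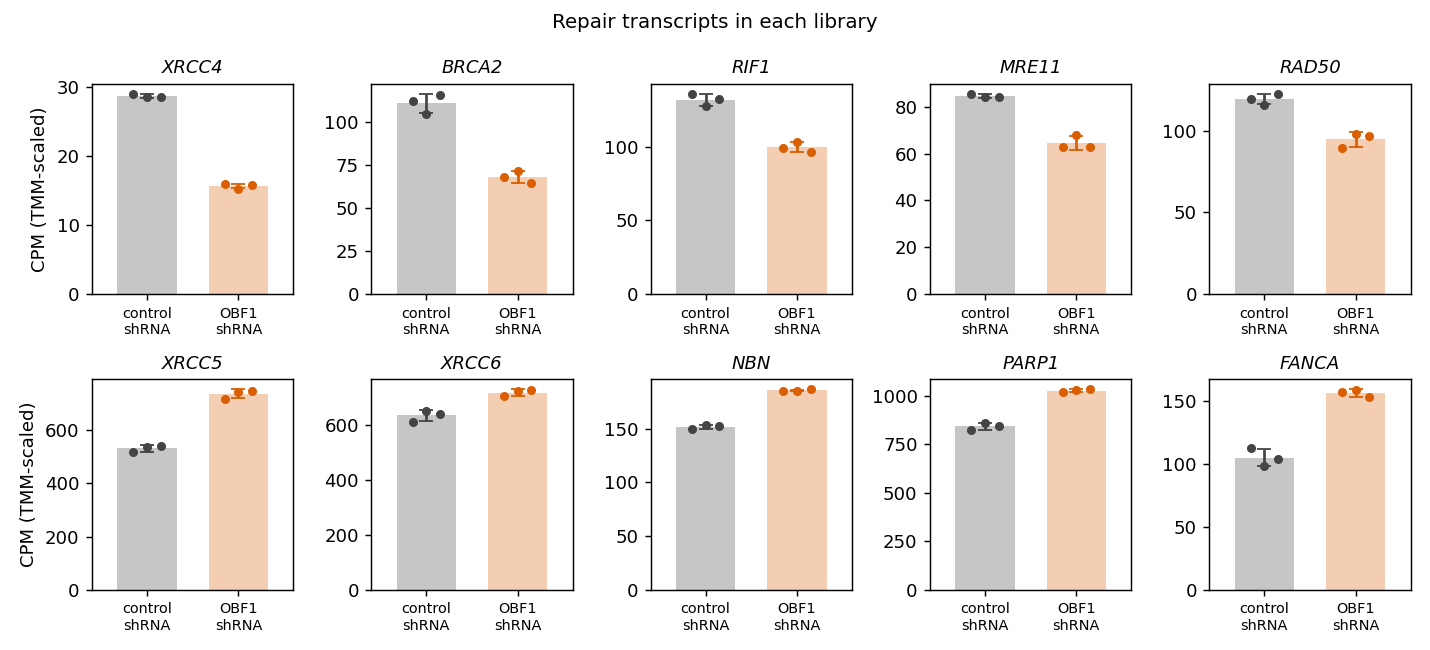
TMM-scaled CPM in each library (points), with the group mean (bars) and SD (error bars) of 3 control and 3 OBF1 shRNA libraries, for 10 repair genes; each y axis starts at 0. XRCC4, BRCA2, RIF1, MRE11 and RAD50 are lower in all 3 OBF1 shRNA libraries, and XRCC5, XRCC6, NBN, PARP1 and FANCA higher.

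The 3 subunits of the break-sensing MRN complex did not move together. The nuclease gene MRE11 was at 85.6, 84.2 and 84.0 CPM with the control hairpin and 62.8, 68.0 and 62.7 CPM with the OBF1 hairpin, a 1.31-fold fall (log2 fold change -0.39, SE 0.04, edgeR adjusted p = 2.34e-08). RAD50, the tether of the complex, was at 119, 116 and 122 CPM with the control hairpin and 89.3, 98.1 and 96.6 CPM with the OBF1 hairpin, a 1.26-fold fall (edgeR adjusted p = 1.72e-07). NBN, which brings the kinase ATM to the complex, was at 149.8, 154 and 152 CPM with the control hairpin and 185, 186 and 187 CPM with the OBF1 hairpin. It rose 1.22-fold (log2 fold change 0.29, SE 0.03, edgeR adjusted p = 1.2e-08), and each of these genes kept groups that did not overlap.

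Among the checkpoint kinases, ATR and CHEK1, which act in sequence at stalled forks, went in opposite directions. CHEK1 was at 109, 107 and 107 CPM with the control hairpin and 89.6, 91.3 and 91.2 CPM with the OBF1 hairpin, a 1.19-fold fall (log2 fold change -0.25, SE 0.03, edgeR adjusted p = 5.11e-07). ATR rose 1.17-fold, from 162 ± 0.316 to 190.1 ± 6.56 CPM (n = 3, SD, with an edgeR adjusted p of 8.87e-07). ATM, the kinase of double-strand breaks, was at 139 and 144 CPM with groups that overlapped, and its log2 fold change of 0.05 had a 95% interval of -0.03 to 0.13. CHEK2, the target of ATM, was at 32.8 and 31.0 CPM and was not called (95% interval -0.18 to 0.01), but was called lower with library sizes alone (edgeR adjusted p = 0.00123) and without OBF1 shRNA replicate 2 (0.0427). CHEK2 has pseudogene copies, which makes its counts uncertain. ATM was called higher with the GC offset (log2 fold change 0.20).

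Homologous recombination genes fell or were not called. BRCA2, which loads the strand-exchange recombinase onto DNA, led them, at 112, 104 and 115 CPM with the control hairpin and 68.1, 71.6 and 64.7 CPM with the OBF1 hairpin. The groups were well apart, and BRCA2 fell 1.62-fold (log2 fold change -0.70, SE 0.04, edgeR adjusted p = 3.8e-11). BRCA1, which promotes resection of the broken end, was at 244, 242 and 244 CPM with the control hairpin and 191, 208 and 195 CPM with the OBF1 hairpin, a 1.23-fold fall (log2 fold change -0.30, SE 0.03, edgeR adjusted p = 5.63e-08). RAD54L, the translocase that acts on the recombinase filament, was at 72.9, 66.8 and 72.5 CPM with the control hairpin and 56.8, 56.6 and 55.3 CPM with the OBF1 hairpin, a 1.26-fold fall (edgeR adjusted p = 5.77e-07). BLM, the helicase that dissolves joint molecules, was at 64.1, 64.9 and 63.6 CPM with the control hairpin and 50.7, 54.9 and 52.2 CPM with the OBF1 hairpin, a 1.22-fold fall (edgeR adjusted p = 2.13e-06).

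The partners of the BRCA proteins did not pass the test. BARD1, the RING partner of BRCA1, was at 35.0 and 33.6 CPM (95% interval of the log2 fold change -0.14 to 0.03), and PALB2, the bridge between BRCA1 and BRCA2, at 57.0 and 59.4 CPM (-0.02 to 0.14). Neither was called. With library sizes alone edgeR called BARD1 lower, at a log2 fold change of -0.17 (adjusted p = 0.00182), and both were called higher with the GC offset, at log2 fold changes of 0.10 and 0.18, so that 2 recombination genes were then higher and 4 lower. RAD51C, a recombinase paralog, was at 35.1 and 32.0 CPM with overlapping groups. It was called lower (edgeR adjusted p = 0.0251), but not with DESeq2 (adjusted p = 0.0617), nor with the GC offset (0.827), nor in edgeR without control shRNA replicate 2 (0.126), control shRNA replicate 3 (0.0544), OBF1 shRNA replicate 1 (0.0699) or OBF1 shRNA replicate 3 (0.141).

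The Fanconi group held the largest gain among all members. FANCA, the scaffold of the core ubiquitin ligase, was at 113, 98.7 and 104 CPM with the control hairpin and 157, 159 and 153 CPM with the OBF1 hairpin. It rose 1.49-fold without overlap (log2 fold change 0.58, SE 0.04, edgeR adjusted p = 1.77e-10). The gene spans of FANCA and ZNF276 overlap in RefSeq, and ZNF276 rose as well, from 25.5 to 45.7 CPM (log2 fold change 0.84, edgeR adjusted p = 5.16e-11). Whether reads were counted by strand is not given, and the part of ZNF276 in the FANCA value was not tested. FANCM, the translocase that anchors the core complex, was at 33.9, 31.8 and 33.7 CPM with the control hairpin and 28.5, 28.7 and 27.5 CPM with the OBF1 hairpin, a 1.17-fold fall (edgeR adjusted p = 0.000200), which was not called with the GC offset (adjusted p = 0.110). FANCD2, the target of the ligase, whose pseudogene copies make its counts uncertain, was at 119, 117 and 118 CPM with the control hairpin and 108, 109 and 111 CPM with the OBF1 hairpin, a 1.08-fold fall (edgeR adjusted p = 0.00161). FANCI, its partner, was at 233, 230.0 and 236 CPM with the control hairpin and 224, 226 and 223 CPM with the OBF1 hairpin. FANCI was called lower at the edge of the threshold (log2 fold change -0.06, edgeR adjusted p = 0.0490), but not with any 1 library left out (adjusted p = 0.0607 to 0.220). The call was also lost with DESeq2 (0.104), RLE factors (0.0723), every gene with a count kept (0.139) or a block for the replicate number (0.0840). With the GC offset the log2 fold change of FANCI was -0.01 (edgeR adjusted p = 0.720).

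Read counts per length let levels be compared between genes. In control cells the most abundant members were APEX1 at 335 CPM per kilobase, XRCC6 at 229, PARP1 at 211, XRCC5 at 124, PRKDC at 94.8 and MSH6 at 75.5. The lowest were FANCM at 4.42, POLH at 5.00 and SMUG1 at 5.40 CPM per kilobase. Between control and OBF1 shRNA cells XRCC4 went from 13.7 to 7.47 and BRCA2 from 9.72 to 5.98 CPM per kilobase, while FANCA went from 16.3 to 24.3.

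Ratios between partner genes within a library do not depend on how libraries are scaled, and 15 such ratios of length-scaled counts were compared. The pairs were chosen with earlier results of these data known, and ratios of other gene pairs were not computed. Taken singly, 76.6% of all tested genes had groups that did not overlap in CPM. In 13 of the 15 ratios the 3 OBF1 shRNA libraries did not overlap the controls. Each had a two-sided exact permutation p of 0.1, the smallest that 3 against 3 allows (Benjamini-Hochberg adjusted 0.115), so none could pass a threshold of 0.05. The XRCC4 to LIG4 ratio was 1.69, 1.75 and 1.71 in control and 0.847, 0.789 and 0.855 in OBF1 shRNA libraries. By length-scaled counts XRCC4 thus went from the more to the less abundant transcript of the pair. In CPM, with no length scaling, XRCC4 was already below LIG4 in control (28.7 against 34.7 CPM). The PALB2 to BRCA2 ratio was 1.47, 1.47 and 1.40 in control and 2.50, 2.27 and 2.58 in OBF1 shRNA libraries, and the NBN to MRE11 ratio 2.02, 2.11 and 2.09 against 3.40, 3.15 and 3.43. These 3 ratios differed by more than 1.5-fold.

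Smaller shifts of ratio were found in other complexes. The Ku70 to Ku80 transcript ratio (XRCC6 to XRCC5) was 1.85 ± 0.0309 in control and 1.51 ± 0.0111 in OBF1 shRNA libraries, RIF1 to TP53BP1 0.649 ± 0.0100 and 0.487 ± 0.00827, and PMS2 to PMS1 2.31 ± 0.207 and 3.09 ± 0.209 (SD, n = 3). BARD1 to BRCA1 was 0.455 and 0.539, MSH6 to MSH3 7.34 and 8.55, REV1 to REV3L 0.724 and 0.823, ATR to ATM 1.58 and 1.79, CHEK1 to CHEK2 1.44 and 1.28, UNG to SMUG1 10.5 and 9.18, and FANCI to FANCD2 2.43 and 2.53. Groups overlapped for RAD50 to MRE11 (1.08 and 1.12, exact permutation p = 0.3) and for XRCC1 to PARP1 (0.0642 and 0.0647, exact permutation p = 1).

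**Figure D3:**
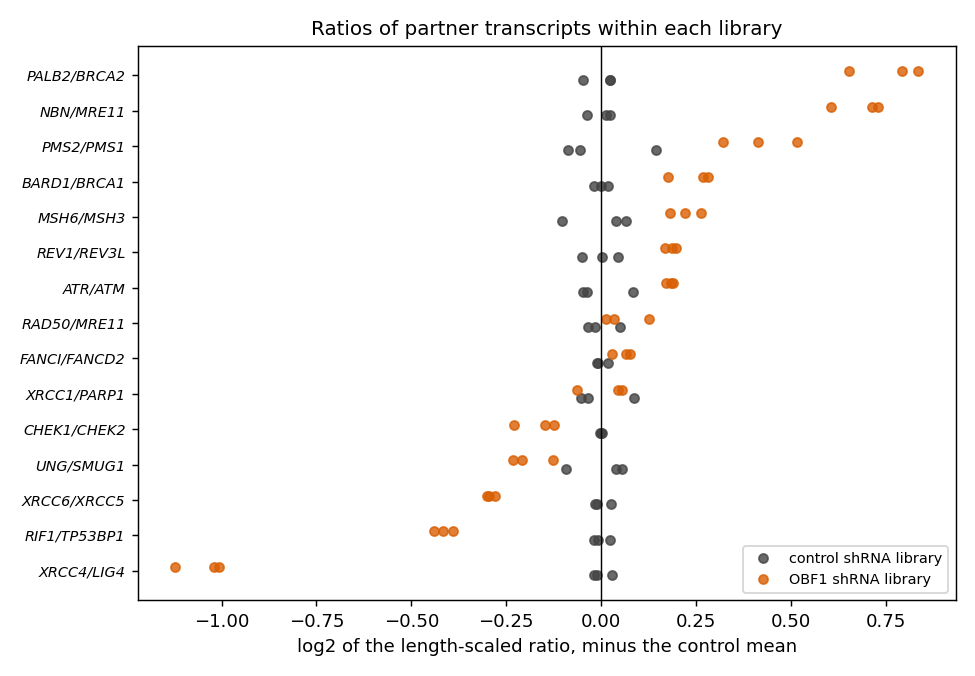
Log2 ratio of length-scaled counts of 2 partner genes in each library, minus the mean of the control libraries (x axis), for 15 pairs (y axis); grey points are 3 control and orange points 3 OBF1 shRNA libraries. XRCC4/LIG4 shows the largest drop (-1.05) and PALB2/BRCA2 the largest gain (0.76), while the groups overlap for RAD50/MRE11 and XRCC1/PARP1.

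Other repair genes, 106 in all with 105 tested, 15 of them from nucleotide excision repair, a pathway with no member among the 40, gave 26 higher, 53 lower and 26 not called (edgeR), that is 75.2% called beside 75.4% of all genes. With library sizes alone the split was 16 higher and 70 lower. By pathway, translesion synthesis had 2 higher and 5 lower of 7 tested, with a median log2 fold change of -0.28. End joining had 2 and 8 of 12 (median -0.18), the Fanconi group 2 and 8 of 13 (-0.16), break sensing and checkpoint 1 and 6 of 11 (-0.09) and homologous recombination 2 and 11 of 21 (-0.06). Base excision repair had 8 higher and 4 lower of 15 (0.14), mismatch repair with its replication partners 5 and 5 of 11 (-0.02), and nucleotide excision repair, which removes bulky lesions, 4 and 6 of 15 (-0.10).

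Called changes of at least 1.5-fold were found for 7 of these 105 tested genes, 4 higher and 3 lower. Over all tested genes 23.3% were called with a change of that size. Of the 7 genes, 6 are described here. The oxidised-base glycosylases NEIL1 and NEIL2 moved in opposite directions: NEIL1 fell 2.91-fold, from 11.6 ± 0.406 to 3.98 ± 0.354 CPM, and NEIL2 rose 2.13-fold, from 5.23 ± 0.537 to 11.2 ± 0.359 CPM (n = 3, SD, with an edgeR adjusted p of 1.75e-11 and 1.83e-09). APLF, an end joining factor that binds Ku, fell 1.76-fold, from 13.7 ± 1.001 to 7.77 ± 0.690 CPM (SD, n = 3). RMI1, a partner of BLM in the dissolvase, fell 1.62-fold, from 88.5 ± 2.68 to 54.6 ± 2.52 CPM, and the structure-specific nuclease gene MUS81 rose 1.59-fold, from 28.2 ± 0.669 to 44.9 ± 0.892 CPM (SD, n = 3). ERCC2, a helicase of nucleotide excision repair, rose 1.63-fold, from 14.9 ± 0.258 to 24.3 ± 0.736 CPM (SD, n = 3). Adjusted p-values of the last 4 genes in edgeR were between 1.56e-11 and 4.82e-08.

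Cell cycle genes were measured beside the recombination genes. Of 22 S phase genes, 8 were higher, 9 lower and 5 not called, with a median log2 fold change of 0.03 and sums of 5185 to 5338 CPM in control and 5227 to 5273 CPM in OBF1 shRNA libraries. Of 22 G2/M genes, 21 were lower and 1 higher, with a median of -0.35 and sums of 4805 to 4902 against 3744 to 3864 CPM. Called genes made up 77.3% of the S phase list and 100% of the G2/M list. Over all tested genes 75.4% were called, 37.5% higher and 37.9% lower. E2F2 and PRIM1 had the smallest p-values of the S phase list, 1.37-fold and 1.39-fold lower, and HMMR and TTK of the G2/M list, 1.63-fold and 1.58-fold lower. The part of the G2/M decrease in the lower recombination transcripts was not tested, and in bulk RNA fewer cells in a phase and less RNA per cell cannot be told apart.

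Transcript GC content moved with the fold changes. With the tested genes split into 4 equal classes by GC content, the median log2 fold change was -0.15 in the lowest class, then -0.05, 0.04 and 0.17 in the highest. Members had a median GC content of 42.6%, against 48.3% for all tested genes. Of the 40 members, 17 lay in the lowest class, where 11 were lower and 4 higher. Another 14 lay in the next (5 lower, 2 higher), 8 in the next (3 lower, 3 higher) and 1 in the highest, XRCC1. Among all tested genes with a GC value, 54.1% of the lowest class were called lower and 24.95% higher. The shares lower and higher were 42.9% and 33.7% in the next class, then 35.1% and 43.1%. Across the 40 genes Pearson's r between GC content and log2 fold change was 0.45 and Spearman's rho 0.41, as a description over genes that share the same 6 libraries. For log2 gene length these were -0.08 and -0.15. Over all tested genes r and rho with GC content were 0.17 and 0.25. Over the other repair genes they were 0.43 and 0.47. With the GC offset XRCC4 was still lower at a log2 fold change of -0.68, BRCA2 at -0.51, RIF1 at -0.25 and MRE11 at -0.24, and FANCA was still higher at 0.47, XRCC5 at 0.52 and NBN at 0.44, each called. The log2 fold change of LIG4 went from 0.18 to 0.37. The 4 members called higher in the lowest GC class were NBN, LIG4, ATR and MSH6, while RAD54L, at 53.1% GC, was called lower.

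**Figure D4:**
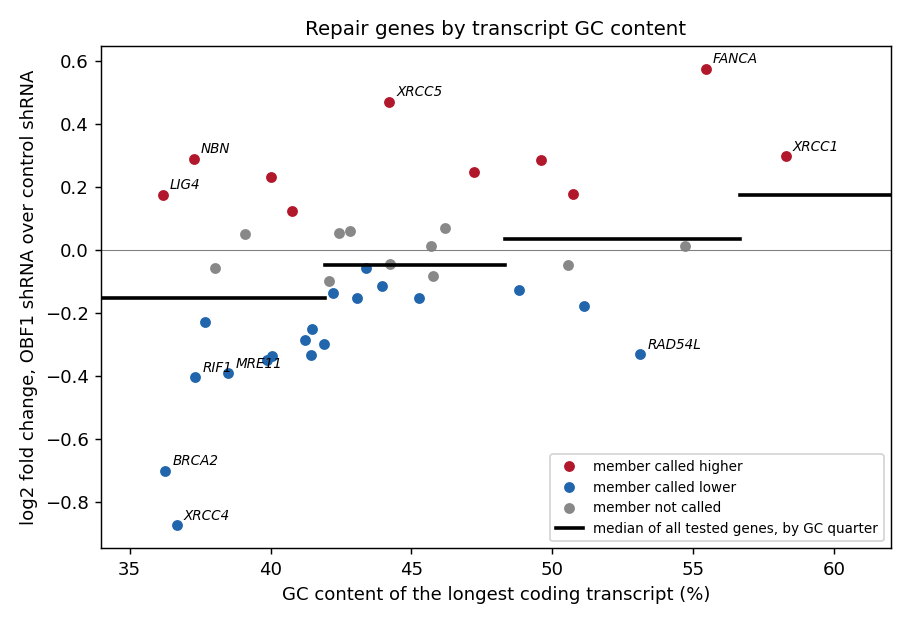
GC content of the longest coding transcript (x axis, percent) against log2 fold change (y axis, OBF1 shRNA over control shRNA) for 40 repair genes, with black lines at the median of all tested genes in each of 4 equal classes of GC content. XRCC4, BRCA2, RIF1 and MRE11 lie below the median of -0.15 of the lowest class, and NBN and LIG4 above it.

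Some members overlap other expressed genes. By RefSeq, the spans of 14 of the 40 genes overlapped another tested gene. RAD54L overlaps LRRC41, which rose from 53.4 to 90.9 CPM (log2 fold change 0.77, edgeR adjusted p = 2.07e-12) while RAD54L fell. BRCA1 overlaps NBR2 (log2 fold change -0.75, called lower), and MRE11 overlaps ANKRD49 (-0.19, called lower). XRCC4, BRCA2, XRCC5 and NBN had no such overlap.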

How the data were processed

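RNA was measured by stranded poly(A) sequencing in 6 Raji libraries, per the labels' protocols. The authors deposited 1 table of raw counts per gene and, beside them, gene lengths. Builds hg19 and mm9 are named in the submitters' processing notes. For the aligner, counter, annotation and strand setting: not given in the sources used here. Symbols came from RefSeq GRCh38.p14 (23308 of 23459 rows matched; the other 151 held 0.115% to 0.138% of counts and stayed in), so no gene coordinates of the count table are given; 0 sample columns were left out.

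Counts were tested in R 4.3.3 with edgeR 4.0.16: filterByExpr (min.count 10, min.total.count 15), TMM scaling, glmQLFit and glmQLFTest with no covariate, Benjamini-Hochberg threshold 0.05 over all tested genes. SE is the log2 fold change divided by the square root of F. Pair ratios used counts divided by gene length. Replicate pairs differed beyond counting error (chi-square per degree of freedom 1.84 to 3.17). At total counts of 29569281 to 32612429 per library the fit gave a common biological coefficient of variation of 0.0269, and the members' counts lay between 451 and 41488 per library.

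Alternatives were DESeq2 1.42.0, limma-voom (limma 3.58.1), RLE, upper-quartile and no scaling factors, other filters, glmTreat against 1.5-fold, the replicate block and leaving out each library. A GC offset was added after the data were seen: the median deviation of each library in 20 bins of GC content of the longest coding transcript (GENCODE 29), for 10611 genes. CCAAT and GC box motifs were also added then. Members, lists and pairs were chosen with earlier results of these data known. All members are named; values per library are given for up to 4 per pathway with the smallest p and any changed by 1.5-fold, and other repair genes are named if called at 1.5-fold, at most 12. Of each cell cycle list the 2 genes with the smallest p are named. Other genes (overlapping genes, marker genes) were picked after their values were seen. Some results for single genes that these rules would name are not reported here.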

Additional observations from a re-analysis of the deposited data

How the results depend on the processing

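Of 29 called members, 24 kept their call and direction under 14 alternatives listed for these data (glmTreat and the GC offset not counted); the others were MSH6, LIG4, NHEJ1, RAD51C and FANCI. Leaving out 1 library gave 10 to 11 members higher and 16 to 20 lower, 4308 to 4533 genes higher and 4284 to 4441 lower, 1 to 2 mismatch repair members higher and 1 to 2 lower, 1 to 2 base excision members lower, and a recombination median of -0.32 to -0.26. Tested against 1.5-fold with glmTreat, 1180 genes were higher and 787 lower, 4 wider repair genes higher and 3 lower, and 0 members higher and 2 lower, 1 of them in end joining and 1 in homologous recombination, with 0 in either direction in the other pathways. With library sizes alone 16 wider genes were higher, 0 mismatch repair members were higher and 2 lower, and 3 base excision members lower. The medians were then -0.0548 for mismatch repair, -0.13 for base excision, -0.26 for translesion synthesis, -0.17 for end joining, -0.19 for break sensing, -0.40 for recombination and -0.19 for the Fanconi group. Upper-quartile factors gave 2 members lower in mismatch repair, 2 in base excision and a recombination median of -0.31. With the GC offset 3 mismatch repair and 2 recombination members were higher, 1 Fanconi member was lower, and the medians were -0.11 for translesion synthesis, -0.18 for recombination and -0.0382 for the Fanconi group. Signs changed only for members not called: with library sizes alone PMS2 (-0.0386), EXO1 (-0.0548), SMUG1 (-0.0971), TP53BP1 (-0.10, then called lower, edgeR adjusted p = 0.00646), ATM (-0.0584) and PALB2 (-0.0497); with upper-quartile factors SMUG1 (-0.00766) and TP53BP1 (-0.00741); with the GC offset MSH3 (0.0263), SMUG1 (-0.0790) and BARD1 (0.0980, then called higher); and, with 1 library left out, SMUG1 (-0.00871 to 0.0507, below 0 without control replicate 3 or OBF1 replicate 3). The cause was not tested.

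Replicate numbers did not pair the libraries (correlations of deviations 0.01, -0.12 and -0.06, and no library was closest to its own number). With the replicate block 10 members were higher and 18 lower, and 4356 genes higher and 4403 lower. The width of the intervals limits what can be seen. SMUG1 and POLB, among the members with the fewest counts, have intervals of about 0.1 on the log2 scale to either side. The interval of MSH3, with 1146 to 1545 counts per library, is of similar width (-0.20 to 0.01).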
